A study of Mus musculus with 203 samples.

Results

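Imprinted genes are transcribed mainly from the copy inherited from a single parent. Of 10 such genes followed here in single motor neurons of the mouse nucleus ambiguus, Dlk1 stood far apart between neuron types and the other 9 did not. The 10 genes are Dlk1, Meg3, Rian, Mirg, Peg3, Snrpn, Ndn, Magel2, Nnat and Kcnq1ot1. They were chosen by name as a set of imprinted genes, with earlier results of these data known. The study itself had listed Dlk1 among the genes enriched in its laryngeal neurons, from these same neurons. All 10 were found among the 24029 genes of the deposited count table. The neurons came from wild-type C57BL/6 mice (C57BL/6NCrl by the study's methods) that received fluorescent cholera toxin B, a retrograde tracer, either in the pericardial space around the heart or in the cricothyroid muscle of the larynx. Labeled cell bodies were aspirated from brainstem slices at postnatal day 2 to 4, and each deposited sample is 1 neuron prepared by Smart-seq2. The neurons were taken by their deposited type: 53 ACP and 98 ACV neurons, the pair of cardiac types (AmbCardiac), and 52 Larynx neurons (AmbLaryngeal). No label ties a neuron to its mouse, so each type counts here as a single sample without replicates, no test was run and no p-value is given. The study split ACP from ACV by clustering the expression of the cardiac neurons, so these 2 types were defined from these same counts. The 52 Larynx neurons are as many as the laryngeally labeled neurons the study kept, and their type is taken here as deposited.

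Imprinted genes lie in clusters in which a shared control region keeps some genes active on the paternal copy and others on the maternal copy. In the Dlk1-Dio3 domain, Dlk1 and Rtl1 are paternally expressed, whereas the long noncoding RNAs Meg3, Rian and Mirg, which carry clusters of small nucleolar RNAs and microRNAs, are maternally expressed. Many imprinted genes are active in the developing brain, and Dlk1, a transmembrane relative of the Notch ligands, is known for a role in fast motor neuron identity. Because the mice were inbred, the reads do not tell the parental copies apart, and allelic origin was not measured.

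The 10 genes lie in 5 places of the GRCm38 genome by the GENCODE vM21 annotation. On chromosome 12 and on the same strand lie Dlk1 (chr12:109452823-109463336), Meg3 (chr12:109541001-109571726), Rian (chr12:109603940-109661716) and Mirg (chr12:109729764-109749460). On chromosome 7 lie Peg3 (chr7:6703892-6730431), the neighbors Snrpn (chr7:59982495-60140219), Ndn (chr7:62346569-62350262) and Magel2 (chr7:62377010-62381640), and Kcnq1ot1 (chr7:143203458-143296549), which runs antisense within Kcnq1. Nnat (chr2:157560078-157562522) lies on chromosome 2 inside an intron of Blcap. Dlk1, Peg3, Snrpn, Ndn, Magel2 and Nnat encode proteins, and the other 4 are noncoding.

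Start-site sequences were read for all 10 genes from RefSeq (GRCm38.p6), each from 250 bases before to 50 bases after the start. They are shown because 6 of the genes hold short motifs that their choice did not use, and the windows of 5 of the 6 are printed, with that of Dlk1 for comparison. The sixth, Magel2, held only TATAAA. CGCATGCG, the core of the sequence recognized by nuclear respiratory factor 1, was in the windows of Ndn and Nnat and in all 4 windows of Snrpn, and in 1.87% of the 32851 start-site windows of the genome. The Snrpn windows that are not printed share long stretches of nearly the same sequence, so their matches are not separate. TGACGTCA, the cyclic AMP response element, was in the first of the Meg3 windows and in that of Peg3, against 1.79% of all windows. TATAAA, searched on both strands, was in the first Meg3 window, in Magel2 and in a single Snrpn window, against 13.6% of all windows. CGCATGCG and TGACGTCA are their own reverse complements. The motifs were picked after the sequences had been read, and a match is only a match of letters. The Dlk1 window held none of the 3. Below, capitals mark these motifs.
Dlk1, chr12:109452573-109452872, plus strand: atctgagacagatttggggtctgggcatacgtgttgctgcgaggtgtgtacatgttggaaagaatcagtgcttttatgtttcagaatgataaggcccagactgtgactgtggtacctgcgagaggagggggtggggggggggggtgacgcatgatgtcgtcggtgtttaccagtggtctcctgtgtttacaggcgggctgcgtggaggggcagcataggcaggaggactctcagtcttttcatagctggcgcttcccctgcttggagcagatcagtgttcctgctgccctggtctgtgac
Meg3, chr12:109540746-109541045, plus strand: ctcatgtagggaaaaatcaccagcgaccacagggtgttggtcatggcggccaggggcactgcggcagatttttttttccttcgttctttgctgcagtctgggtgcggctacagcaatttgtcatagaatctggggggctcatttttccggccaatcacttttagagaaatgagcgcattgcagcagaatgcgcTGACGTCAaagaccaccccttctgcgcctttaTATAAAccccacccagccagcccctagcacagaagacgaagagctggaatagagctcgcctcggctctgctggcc
Peg3, chr7:6730370-6730669, minus strand: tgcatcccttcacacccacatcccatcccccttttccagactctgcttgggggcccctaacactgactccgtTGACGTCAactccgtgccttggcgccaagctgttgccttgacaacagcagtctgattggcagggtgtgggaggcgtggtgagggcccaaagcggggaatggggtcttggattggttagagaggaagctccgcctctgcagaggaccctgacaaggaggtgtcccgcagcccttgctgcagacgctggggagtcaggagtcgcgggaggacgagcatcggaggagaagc
Snrpn, chr7:60005150-60005449, minus strand: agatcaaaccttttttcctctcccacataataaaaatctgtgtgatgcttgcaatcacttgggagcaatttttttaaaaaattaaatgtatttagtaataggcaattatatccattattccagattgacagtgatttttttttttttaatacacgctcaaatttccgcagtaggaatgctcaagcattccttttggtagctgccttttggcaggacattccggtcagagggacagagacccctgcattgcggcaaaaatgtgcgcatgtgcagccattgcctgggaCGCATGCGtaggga
Ndn, chr7:62348027-62348326, plus strand: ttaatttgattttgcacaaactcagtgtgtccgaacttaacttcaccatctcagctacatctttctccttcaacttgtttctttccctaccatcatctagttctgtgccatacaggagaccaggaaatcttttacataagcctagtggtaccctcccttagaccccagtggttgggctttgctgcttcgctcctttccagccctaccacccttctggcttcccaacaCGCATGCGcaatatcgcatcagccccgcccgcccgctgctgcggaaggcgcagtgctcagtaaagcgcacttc
Nnat, chr2:157559828-157560127, plus strand: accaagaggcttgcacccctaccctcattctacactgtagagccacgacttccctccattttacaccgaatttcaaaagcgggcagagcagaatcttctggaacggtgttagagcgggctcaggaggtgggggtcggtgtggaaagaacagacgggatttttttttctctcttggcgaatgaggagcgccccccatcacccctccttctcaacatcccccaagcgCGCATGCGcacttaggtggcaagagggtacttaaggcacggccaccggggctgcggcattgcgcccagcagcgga

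The window printed for Snrpn is also the start-site window of Snurf, an upstream reading frame on the same transcript. Snurf was listed at 0 in every neuron, and 216 exon bases of Snrpn lie in Snurf. How reads that fall in both were counted is not given in the sources used here, so the level of Snrpn is uncertain.

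Depth differed between the types. Counts outside Rn45s, a ribosomal RNA gene that took a median of 34.3% of ACP, 35.8% of ACV and 58.6% of Larynx counts, ran from 330407 to 2396541 per ACP neuron, from 313668 to 2226230 per ACV neuron and from 118492 to 1821510 per Larynx neuron. All levels below are therefore counts per 1000000 counts outside Rn45s (CPM). A type's level sums the reads of all its neurons, and its 95% interval is an exact Poisson interval that covers counting error only. The 6 motor neuron markers, Slc18a3 and Chat among them, had reads in every type, with a summed level of 3541 in ACP, 3963 in ACV and 4744 in Larynx. The 8 astrocyte markers summed to 2637, 3631 and 3358. Of these 8, Aldoc (959.3, 1009 and 1615) and Fabp7 (355.0, 481.9 and 486.8) were higher in Larynx than in ACP. Apoe, Aldh1l1, Slc1a3, Slc1a2, Aqp4 and Gfap were each lower in Larynx than in ACP. The 8 oligodendrocyte lineage markers summed to 649.9, 417.8 and 555.3, and the 6 microglial markers to 52.8, 231.1 and 118.8. The 5 endothelial and pericyte markers summed to 14.9, 4.07 and 10.9, with Flt1 at 0 in ACP, and the 5 meningeal and fibroblast markers to 44.9, 41.8 and 481.2.

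Dlk1 was at 26.3 CPM in Larynx neurons (interval 24.6 to 28.2, 833 reads), against 1.15 in ACP (0.900 to 1.44, 74 reads) and 0.951 in ACV (0.781 to 1.15, 110 reads). The Larynx level was 23-fold that of ACP and 27.7-fold that of ACV. Single ACP neurons ran from 0 to 28.6 with a median of 0, ACV neurons from 0 to 21.9 with a median of 0, and Larynx neurons from 0 to 120.4 with a median of 6.025. The types overlapped: 14 of 52 Larynx neurons lay above every cardiac neuron, and 34 of 52 (65.4%, exact Clopper-Pearson interval 50.9% to 78%) had any Dlk1 read. A read was found in 9 of 53 ACP neurons (17%, 8.07% to 29.8%) and in 23 of 98 ACV neurons (23.5%, 15.5% to 33.1%). Thinning every neuron to 250000 counts, which left out 3 shallow Larynx neurons, gave 67.3% of Larynx, 11.3% of ACP and 7.14% of ACV neurons. The share was thus highest in Larynx, the shallowest type, both before and after thinning.

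Few cardiac neurons carried most of the cardiac Dlk1 reads. A single ACP neuron held 59.5% of the ACP reads, and without it the ACP level was 0.476 CPM. In Larynx the highest neuron held 15.6% of the reads and the 5 highest 52.8%, and the level without the highest neuron was 23.6. ACP and ACV lay 1.21-fold apart, log2 0.27 with a counting interval from -0.18 to 0.71, and the order turned when the highest neuron of each type was left out (log2 -0.57). Neurons of the Larynx type thus varied widely among themselves, from no read to 120.4 CPM.

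Preadipocytes and other mesenchymal cells also transcribe Dlk1, and the meningeal and fibroblast markers were higher in Larynx. Their summed level reached 13375 in 1 Larynx neuron, against highest values of 804.3 in ACP and 1234 in ACV. Among the neurons with at most 100 CPM of these markers (44 ACP, 87 ACV and 43 Larynx), Dlk1 was at 1.20, 1.03 and 28.4 CPM. The difference was as large without the neurons rich in fibroblast markers. Among all Larynx neurons Dlk1 and the marker sum had a Pearson's r of 0.31 and a Spearman's rho of 0.35. The part of such cells in the Dlk1 reads was not tested.

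**Figure D1:**
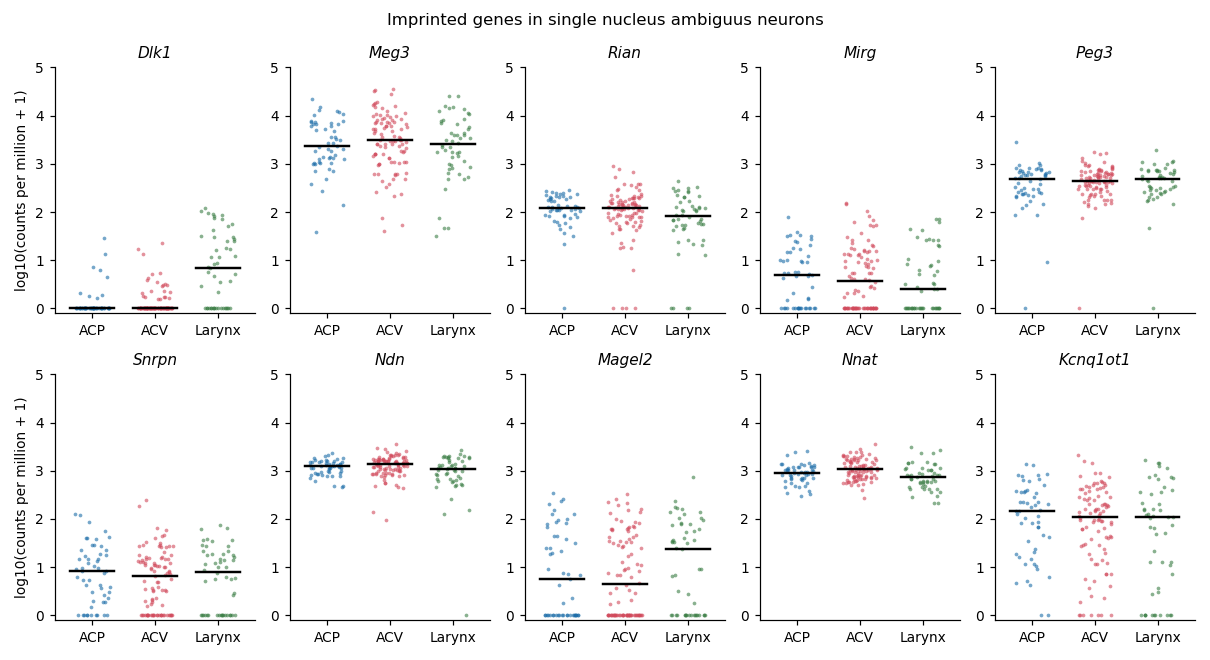
Level of each imprinted gene in every neuron, as log10(CPM outside Rn45s + 1). Each point is 1 neuron, grouped as 53 ACP, 98 ACV and 52 Larynx neurons, and black bars are medians; Dlk1 has a median of 0 in both cardiac types and 6.025 CPM in Larynx, whereas Ndn and Nnat form tight bands and Meg3 spreads widely in every type.

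The other members of the Dlk1-Dio3 domain did not share this pattern. Meg3, a long noncoding RNA retained largely in the nucleus, was at 3840 CPM in ACP, 4826 in ACV and 4557 in Larynx, and it was found in every neuron. Rian, a host of small nucleolar RNAs, was at 136.5, 135.1 and 115.4. Mirg, which hosts microRNAs, was at 7.77, 9.78 and 9.33. The largest of the differences between types for these 3 RNAs was that of Mirg between ACP and ACV, log2 -0.33 (-0.49 to -0.18). Rtl1, a retrotransposon-derived gene expressed like Dlk1 from the paternal copy, was at 19.2, 19.1 and 27.1. Dio3, the deiodinase that inactivates thyroid hormone, was nearly silent, with reads in 1.89% of ACP, 3.06% of ACV and 1.92% of Larynx neurons. Outside the domain, Begain, which borders it on the Dlk1 side, was at 44.6, 30.6 and 94.3, and was higher in Larynx by 1.08 (log2) than in ACP and by 1.62 than in ACV. Wdr25 was at 5.43, 3.34 and 8.10, and past 2-fold only between ACV and Larynx among the 3 comparisons. Wars, Ppp2r5c and Dync1h1 were within 2-fold in every comparison, with Wars at 198.03, 199.6 and 196.2. Of these 5 bordering genes, 0 were past 2-fold between ACP and ACV, 1 between ACP and Larynx and 2 between ACV and Larynx, where the shares over all genes were 16.9%, 21.5% and 24.6%.

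**Figure D2:**
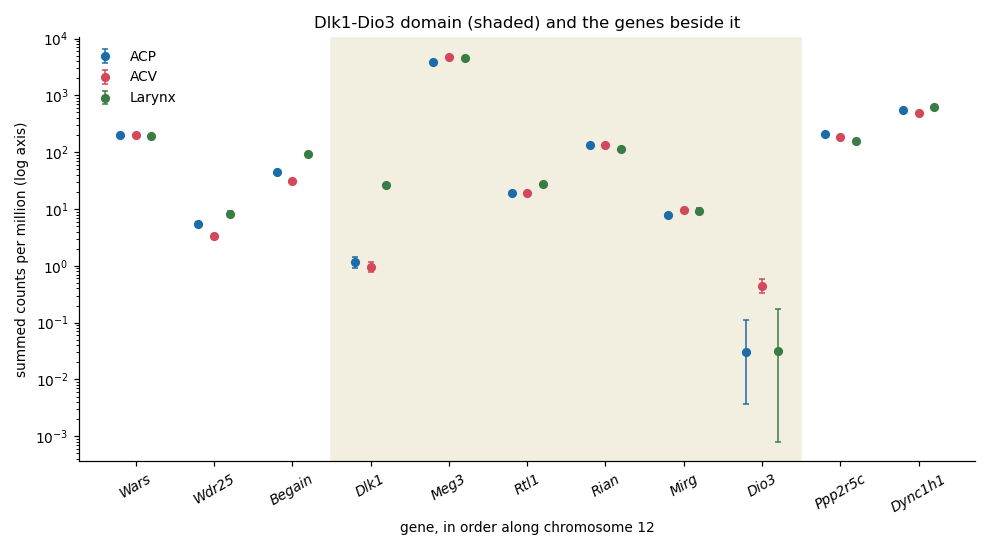
Summed CPM in ACP, ACV and Larynx neurons for the genes of the Dlk1-Dio3 domain (shaded) and those beside it, in their order along chromosome 12, on a log axis. Bars are 95% Poisson intervals; Dlk1 is the gene with the widest gap between Larynx and both cardiac types, and Meg3, Rian and Mirg lie level.

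Each of the remaining members lay within 1.5-fold between any 2 types. A gene was compared where at least 10% of the neurons of either type had a read, and called where the levels were at least 2-fold apart. All 10 members passed this filter in all 3 comparisons, which share their groups. Between ACP and ACV 0 of 10 members were called, against 16.9% of 13356 genes. Between ACP and Larynx 1 of 10 was called, against 21.5% of 13256 genes, and between ACV and Larynx 1 of 10, against 24.6% of 13297 genes. The called member was Dlk1 both times. With only 10 members, counts of 0 and 1 are not read as different from these shares, which cover genes of all levels. At 1.5-fold the member counts were the same, 0, 1 and 1, against 32.2%, 39.8% and 45.3% of genes. Besides Dlk1, the widest gaps were 1.27-fold for Magel2 between ACP and ACV, 1.27-fold for Kcnq1ot1 between ACP and Larynx and 1.46-fold for Magel2 between ACV and Larynx. The median absolute log2 ratio of the members was 0.30, 0.22 and 0.22 in the 3 comparisons, beside 0.36, 0.45 and 0.52 over all genes. When Rn45s was kept in the totals, the median of all genes moved to 0.61 (ACP over Larynx) and 0.55 (ACV over Larynx), the share of calls higher in the cardiac type went from 43% to 83.2% and from 37.4% to 77.8%, and Nnat passed 2-fold between ACV and Larynx with a log2 ratio of 1.12.

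**Figure D3:**
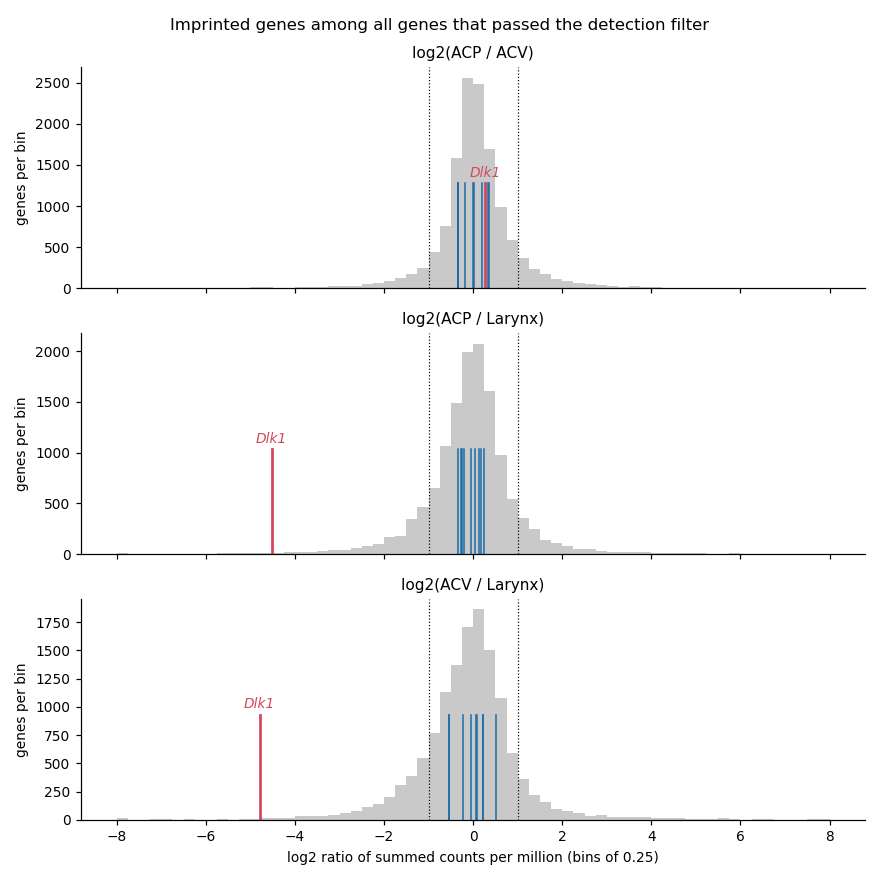
Distribution of log2 ratios of summed CPM over all genes that passed the detection filter (gray bars, bins of 0.25), in 3 panels for ACP over ACV, ACP over Larynx and ACV over Larynx. The red line is Dlk1, at 0.27, -4.52 and -4.79, blue lines are the other 9 imprinted genes, and dotted lines mark 2-fold.

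The protein-coding members of chromosomes 7 and 2 differed in level and in their spread over neurons. Magel2 and Snrpn lay below 100 CPM in every type, so their spread was not ranked against other genes. Ndn, a MAGE family protein of postmitotic neurons, was at 1251 CPM in ACP, 1412 in ACV and 1212 in Larynx. Its single-neuron values ran from 457.0 to 2385 in ACP with a median of 1241, from 94.4 to 3524 in ACV with a median of 1395, and from 0 to 2663 in Larynx with a median of 1100. Nnat, a small proteolipid of the endoplasmic reticulum, was at 924.4, 1174 and 818.5. Nnat ran from 300.9 to 2536 in ACP (median 898.6), from 268.8 to 3550 in ACV (median 1064) and from 216.8 to 3173 in Larynx (median 753.0). The types overlapped almost fully for both genes. The coefficient of variation over neurons was 0.34 in ACP, 0.43 in ACV and 0.53 in Larynx for Ndn, and 0.48, 0.49 and 0.68 for Nnat. Over the genes of at least 100 CPM the median coefficient was 0.75, 0.73 and 0.84, and Ndn was at percentile 0.593, 2.83 and 7.37 of these genes. Ndn was thus among the most even of these abundant genes.

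Peg3, a zinc-finger protein, was at 504.4, 508.1 and 525.2 CPM and had reads in 52 of 53 ACP, 97 of 98 ACV and 51 of 52 Larynx neurons. Its single-neuron medians were 474.4, 446.5 and 478.4, and its highest values 2857, 1759 and 1902. Peg3 was the member with the closest levels across the 3 types. Its coefficient of variation was 0.84, 0.63 and 0.66, at percentile 66.7, 31.6 and 21.9 of the genes of at least 100 CPM. Magel2, another MAGE family gene and a neighbor of Ndn, was at 36.8, 28.9 and 42.2, with a read in 56.6% of ACP, 58.2% of ACV and 65.4% of Larynx neurons. Its values ran from 0 to 344.7 in ACP, from 0 to 336.2 in ACV and from 0 to 742.1 in Larynx, with medians of 4.81, 3.39 and 23.3. Neurons without a Magel2 read thus stood beside neurons with ample Magel2 in each type. Snrpn, which encodes a spliceosome protein of neurons, was at 14.6, 11.6 and 13.4 and was found in 81.1%, 71.4% and 65.4% of neurons, or in 66%, 56.1% and 63.3% after thinning to equal depth.

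Kcnq1ot1, a long antisense RNA that silences its neighbors on the paternal copy, was at 210.5 CPM in ACP, 183.97 in ACV and 268.1 in Larynx. It had a read in 96.2%, 92.9% and 78.8% of neurons. Its values ran from 0 to 1400 with a median of 147.1 in ACP, from 0 to 2113 with a median of 107.97 in ACV, and from 0 to 1678 with a median of 106.9 in Larynx. The share of neurons with a read was thus lowest in Larynx. The 5 highest neurons held 47.8% of the reads of 52 Larynx neurons, 31.7% of those of 53 ACP neurons and 22.3% of those of 98 ACV neurons. That share also depends on the number of neurons, so the ACV value is not directly comparable. Few of its 93092 exon bases lie in exons of Kcnq1 (0.130%), but Kcnq1 lies on the opposite strand across it, and Smart-seq2 does not keep the strand.

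Levels of different genes were compared per kilobase of exon. Nnat had the highest level in all 3 types, with 505.4 CPM per kilobase in ACP, 642.1 in ACV and 447.5 in Larynx. Ndn came next with 338.8, 382.3 and 328.0, then Meg3 with 212.3, 266.8 and 251.9, and Peg3 with 37.9, 38.1 and 39.4. Magel2 (7.95, 6.24 and 9.11), Rian (7.48, 7.41 and 6.33) and Snrpn (6.77, 5.36 and 6.23) lay close together and changed order between types. Kcnq1ot1 was at 2.26, 1.98 and 2.88, and Mirg at 1.07, 1.34 and 1.28. Dlk1 was lowest of the 10 in both cardiac types, at 0.203 in ACP and 0.168 in ACV, and passed Kcnq1ot1 and Mirg in Larynx at 4.66. Lengths are the union of all annotated exons, which may be longer than the forms these neurons make.

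The level of Meg3 differed far more among the neurons of a type than between types. It ran from 36.7 to 21957 CPM in ACP (median 2352), from 40.3 to 36145 in ACV (median 3074) and from 31.4 to 25415 in Larynx (median 2588). The coefficients of variation of Meg3 were 1.04, 1.23 and 1.21, at percentile 88.9, 97 and 91 of the abundant genes, and those of Kcnq1ot1 were 1.26, 1.46 and 1.53, at percentile 97.3, 99 and 98.7. Several of the noncoding members were high and low together. Over the neurons of a type, on ln(CPM + 1), Meg3 and Kcnq1ot1 had a Pearson's r of 0.78 in ACP, 0.84 in ACV and 0.68 in Larynx (Spearman's rho 0.85, 0.85 and 0.72). Meg3 and Mirg had an r of 0.56, 0.60 and 0.66, and Meg3 and Rian an r of 0.63, 0.36 and 0.43 (rho 0.59, 0.54 and 0.67). Of the 45 pairs of members, 6 had an r over 0.3 in every type, and these are the 6 pairs that the noncoding RNAs Meg3, Rian, Mirg and Kcnq1ot1 form. Without the 2 neurons farthest from the median of Meg3 the r of Meg3 with Kcnq1ot1 was 0.78, 0.82 and 0.65. These are descriptions over neurons that share libraries and mice in ways the labels do not give.

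Ndn and Nnat went with Meg3 weakly and mostly downward, with an r of -0.20, -0.16 and -0.22 for Ndn and of -0.24, -0.28 and -0.02 for Nnat. Peg3 had an r of 0.48, 0.35 and 0.30 with Meg3, and Snrpn 0.15, 0.19 and 0.14. Dlk1, although a neighbor of Meg3, had an r with it of -0.03 in ACP, -0.05 in ACV and 0.29 in Larynx. Meg3 went weakly downward with depth in the cardiac types. Its r with the log of counts outside Rn45s was -0.16, -0.27 and -0.02, and in ACP it was -0.32 without the 2 neurons farthest from the median of Meg3. With the share of Rn45s the r of Meg3 was -0.12, -0.03 and 0.04. Its r with the glial gene Apoe was 0.06, -0.14 and 0.19.

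**Figure D4:**
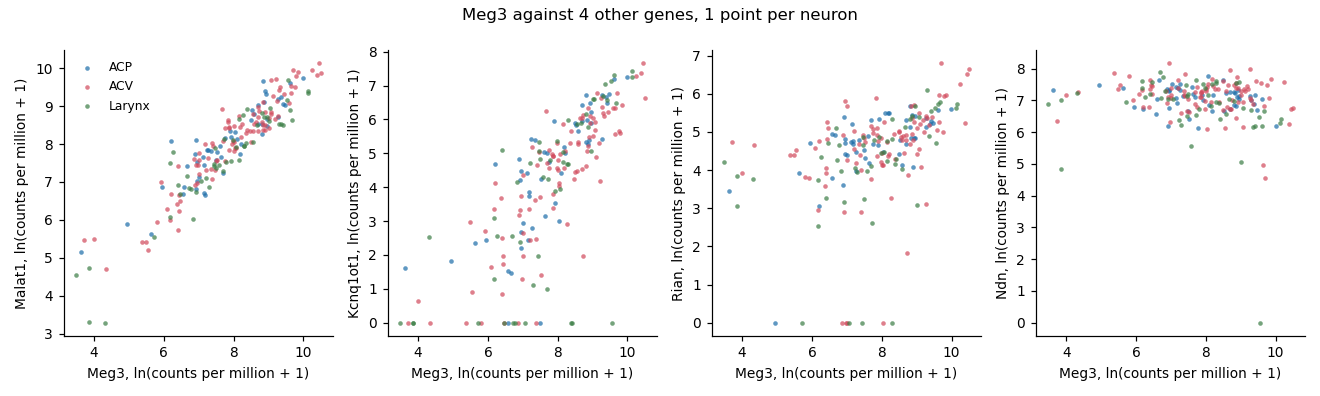
Level of Malat1, Kcnq1ot1, Rian and Ndn against that of Meg3, on ln(CPM + 1), 1 point per neuron and 1 color per type (53 ACP, 98 ACV, 52 Larynx). Malat1 follows Meg3 closely in every type (r of 0.91, 0.95 and 0.93), Kcnq1ot1 and Rian less so, and Ndn stays level.

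The genes most like Meg3 were led by other RNAs known as noncoding. Among 10581 genes with a read in at least 25% of neurons, and with the mean of each type removed, the 5 with the highest r over all neurons were Malat1 (0.94), Snhg11 (0.93), Miat (0.76), Leng8 (0.72) and Pabpn1 (0.70), where the median gene had an r of 0.03. Malat1, Snhg11 and Miat are known as noncoding RNAs, although the annotation lists Snhg11 as protein-coding, and Pabpn1 encodes the nuclear poly(A)-binding protein. Malat1, the abundant RNA of nuclear speckles, was at 4042 CPM in ACP, 4592 in ACV and 3253 in Larynx, and Snhg11 was at 3659, 4245 and 3658. Miat was at 128.8, 102.6 and 237.2. Neat1, the scaffold of nuclear paraspeckles, was sparse, at 7.26, 12.7 and 1.52, and had an r with Meg3 of 0.24, 0.20 and 0.22. Of these 4 nuclear RNAs, Neat1 and Miat were past 2-fold between ACV and Larynx, in opposite directions, and Neat1 between ACP and Larynx. The part of nuclear RNA recovery in the spread of Meg3 was not tested.

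The genes most like Dlk1 by the same measure were Slc44a5 (0.35), Dgkk (0.34), Trpm3 (0.34), B3galt1 (0.34) and Tsc2 (0.33), with a median gene at 0.03. Slc44a5 encodes a choline transporter-like protein, Trpm3 a heat-sensitive cation channel, B3galt1 a galactosyltransferase, Dgkk a diacylglycerol kinase and Tsc2 an inhibitor of mTOR signaling. The study lists Slc44a5, Dgkk and Trpm3, and also Calca and Uts2, among genes enriched in its laryngeal neurons. The likeness came mostly from Larynx, where the r of these genes with Dlk1 was 0.59, 0.48, 0.57, 0.61 and 0.51 in the same order, whereas in ACV Slc44a5 and Trpm3 had an r of -0.02 and -0.04. Calca, which encodes the neuropeptide CGRP and was named after its values were seen, had an r of 0.63 with Dlk1 among Larynx neurons (rho 0.69). Uts2, another neuropeptide gene that was higher in Larynx (76.6 CPM against 2.18 in ACP and 2.65 in ACV), had an r of -0.01 with Dlk1 there. Dlk1 in Larynx neurons also went weakly with depth, with an r of 0.30 with the log of counts outside Rn45s.

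Notch pathway genes were listed because Dlk1 resembles the Notch ligands. Of 22, 2 of the 19 that passed the filter were past 2-fold between ACP and ACV, 6 of 20 between ACP and Larynx and 5 of 19 between ACV and Larynx (10.5%, 30% and 26.3%, beside 16.9%, 21.5% and 24.6% of all genes), with median log2 ratios of 0.11, -0.08 and -0.29 beside 0.04, -0.02 and -0.05 over all genes. The ligand gene Jag1 was at 8.87 CPM in ACP, 0.605 in ACV and 5.22 in Larynx. The receptor gene Notch2 was at 1.75, 3.15 and 5.28. The nuclear effector Rbpj was at 7.09, 4.45 and 11.4, the target gene Hes1 at 2.59, 2.15 and 5.82, and the target gene Hey1 at 35.3, 34.9 and 17.6, in the order ACP, ACV and Larynx. The more abundant ligand Jag2 (55.7, 30.1 and 41.8), the protease gene Adam10 (51.6, 44.1 and 38.5) and the protease subunit gene Ncstn (120.9, 114.8 and 115.9) were within 2-fold in each comparison. Several of these were detected in few neurons, Notch2 in 26.4% of ACP, 33.7% of ACV and 28.9% of Larynx neurons.

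Imprinted genes outside the 10 included several with wide gaps between types. Of 43 others, 6 of 34 that passed the filter were past 2-fold between ACP and ACV (17.6%), 15 of 36 between ACP and Larynx (41.7%) and 15 of 36 between ACV and Larynx (41.7%), beside the shares of 16.9%, 21.5% and 24.6% over all genes. Of the genes listed as paternally expressed, these were 4 of 20, 8 of 20 and 9 of 20. Of those listed as maternally expressed, they were 2 of 14, 7 of 16 and 6 of 16. Several of them are imprinted only in some tissues, and for some, such as Ddc, the active copy differs between tissues. Zim2 and Snurf were listed at 0 in every neuron.

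Rasgrf1, a Ras activator that the study lists as enriched in ACP, differed between the cardiac types, which were defined from these same counts. It was at 243.5 CPM in ACP and 251.3 in Larynx but at 29.1 in ACV, where 44.9% of neurons had a read, against 94.3% in ACP and 94.2% in Larynx. Zdbf2, a zinc-finger gene, was at 63.1 in ACP, 20.4 in ACV and 132.04 in Larynx, and Cdkn1c, an inhibitor of the cell cycle, at 32.5, 11.3 and 35.5. Sfmbt2, a Polycomb group gene, was at 14.4, 6.33 and 23.2. All 4 were lowest in ACV. Ddc, which encodes the enzyme that makes dopamine and serotonin from their precursors, was highest there, at 12, 38.1 and 5.50.

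Mest, a hydrolase gene, was at 141.8 in ACP, 163.4 in ACV and 384.0 in Larynx, and Plagl1, a zinc-finger factor, at 2.91, 5.04 and 16.1. Igf2r, the receptor that clears IGF2, was at 16.1, 20.3 and 52.5, and Airn, the RNA antisense to it, at 0.387, 3.21 and 21.1. Both partners were thus highest in Larynx, but reads from opposite strands cannot be told apart here. Gnas, which encodes the stimulatory G protein subunit, was at 1579, 2881 and 4176, and past 2-fold between ACP and Larynx. Lower in Larynx than in ACP were Peg10 (5.20, 5.38 and 2.09), Sgce (55.2, 39.6 and 27.6) and Impact (271.0, 159.9 and 127.1), the last an inhibitor of the kinase GCN2. Nap1l5 (1142, 829.0 and 924.4), Inpp5f (1336, 1062 and 817.3), Ube3a (188.8, 166.7 and 262.3), H13 (374.9, 352.7 and 251.0) and Blcap (326.4, 253.0 and 270.8) were abundant and within 2-fold in each comparison.

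Igf2, a growth factor gene, and H19, its maternally expressed neighbor, went with the fibroblast markers. Igf2 was at 12.3, 12.3 and 24.6 CPM and H19 at 4.60, 3.26 and 15.1. Among neurons with at most 100 CPM of fibroblast markers Igf2 was at 2.49, 8.18 and 5.78, and H19 at 0.881, 1.78 and 1.89. Both were thus lower in this subset in every type, whereas Dlk1 was not. The source of these reads was not tested. Over neurons, the r of Igf2 with the marker sum was 0.72 in ACP, 0.56 in ACV and 0.64 in Larynx. For Mest and Plagl1 the Larynx levels without the neurons rich in fibroblast markers were 394.2 and 14.7.

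**Figure D5:**
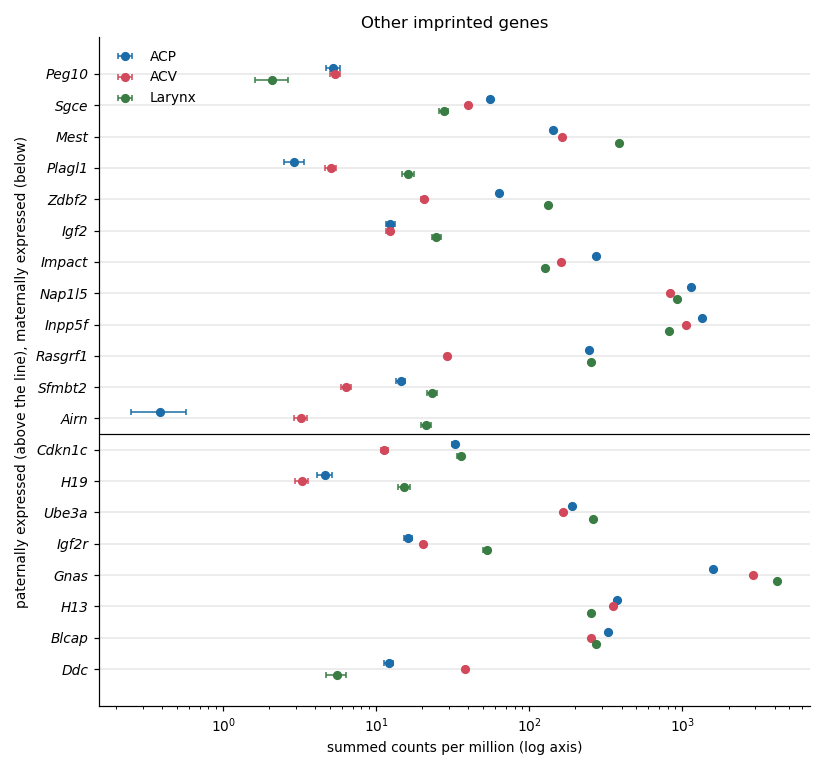
Summed CPM of other imprinted genes in ACP, ACV and Larynx neurons, on a log axis with 95% Poisson intervals. Genes listed as paternally expressed stand above the line and those listed as maternally expressed below it. Rasgrf1, Zdbf2, Sfmbt2 and Cdkn1c are lowest in ACV, and Mest, Plagl1, Airn and Igf2r are highest in Larynx.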

How the data were processed

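Single retrogradely labeled neurons were profiled by Smart-seq2 with Nextera XT libraries, which do not keep the strand. Reads were trimmed with Skewer and aligned to mm10 with STAR 2.6.1d (submitters' processing notes), and neurons with few reads or high Apoe had been removed. The authors deposited raw read counts per gene and neuron, without normalization, and a table giving each neuron's type. The counting program, annotation and strand setting are not given in the sources used here. A second deposited table, labeled CPM, was not used, because its columns do not sum to 1000000.

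Counts were summed over the neurons of a type and scaled per 1000000 counts outside Rn45s (CPM), in Python 3.11.15 with pandas 2.3.3 and scipy 1.17.1. A level of 0 in a type was set to 3 counts over the type for ratios. Intervals are 95% (Poisson for levels, Clopper-Pearson for shares). Reads without molecular identifiers are not independent molecules. The summing and ratio steps were tested on simulated counts. Alternatives were Rn45s in the totals, TMM factors (edgeR 4.0.16), means over neurons, thinning to 250000 counts, other detection filters and folds, and subsets of neurons. No other tests were run, since each type is 1 sample.

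The 10 genes, the lists (other imprinted genes, Notch pathway, nuclear RNAs, bordering genes, cell type markers) and the naming rule were chosen with earlier results of these data known. Named were all 10 genes, the 5 genes most correlated with Dlk1 and with Meg3, and from each list the 4 of highest level and those past 2-fold with a read in at least 25% of neurons of either type. Rtl1, Dio3, Zim2, Snurf, Calca and Uts2 were named outside this rule, and 1 gene that it names is not reported here.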

Additional observations from a re-analysis of the deposited data

How the results depend on the processing

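The difference of Dlk1 between Larynx and the cardiac types kept its direction and stayed past 2-fold under all 8 alternatives of scaling, depth and neurons, with log2 ratios from -5.67 to -3.58 for ACP over Larynx and from -5.10 to -4.19 for ACV over Larynx. Between ACP and ACV, the number of members past 2-fold was 1 in place of 0 among neurons with at most 900 Apoe counts, where the log2 ratio of Dlk1 was 1.22, and between ACV and Larynx it was 2 in place of 1 with Rn45s in the totals, where that of Nnat was 1.12. The cause was not tested in the first case, and in the second the scaling itself moves every ratio. The small log2 ratios of the other members changed sign in places, as for Meg3 between ACP and Larynx (-0.47 to 0.39) and Rian between ACP and ACV (-0.31 to 0.05). The genes past 2-fold were 2254, 2855 and 3276 for ACP against ACV, ACP against Larynx and ACV against Larynx. They were 5394, 5950 and 6492 with no filter on detection, 1205, 1731 and 2126 with a read required in 25% of neurons, and 4300, 5276 and 6018 at 1.5-fold, since more or fewer genes enter or pass. The subset by fibroblast markers was chosen after seeing the data. No paired analysis was possible because the labels name no mouse and no test was run. The precision of rare genes such as Dlk1 in the cardiac types is limited by 74 and 110 reads.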

Other observations

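Some members moved with technical measures among the neurons of a type. Nnat had a Pearson's r with the share of Rn45s of 0.18 in ACP, 0.03 in ACV and 0.52 in Larynx, and Ndn had an r with the log of counts outside Rn45s of 0.18, 0.32 and 0.43. The part of either measure in the levels of these genes was not tested.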
